A study of Mus musculus with 22 samples.

Results

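The genes described here are the ER chaperones, the factors of ER-associated degradation (ERAD) and the sensors of the unfolded protein response (UPR) in mouse liver. All 35 genes of a list set out by name were found among the 55291 genes of the expression tables, and they were followed across all 6 treatment groups of 22 livers. Every animal was a male WT C57BL/6 pup that was injected into a vein on postnatal day 1, and the sample labels place the collection of the liver 36 hours later. The groups were PBS (n = 4), AAV9 capsids without a genome (AAV9.empty, n = 4), AAV9.EGFP (n = 4), rAAV9-ST3GAL5.v1 (n = 3), a vector labelled as the E332K form of rAAV9-ST3GAL5.v1 (the E332K vector, n = 3) and rAAV9-ST3GAL5.v2 (n = 4). In AAV9.EGFP, rAAV9-ST3GAL5.v1 and the E332K vector the transgene is driven by the ubiquitous CB promoter, which joins the CMV enhancer to the chicken β-actin promoter. In rAAV9-ST3GAL5.v2 the neuronal Syn1 promoter drives human ST3GAL5, and the transcript carries target sites near its 3′ end for miR-122, which hepatocytes make in abundance. ST3GAL5 is GM3 synthase, a membrane protein that enters the ER and works in the Golgi, and E332K reads in protein notation as a change of a glutamate to a lysine. In the paper, neurons grown from patient iPSCs with E332K in both copies of ST3GAL5 lacked the major brain gangliosides until the gene was supplied. The paper does not report the E332K vector, and the dose of this vector is not given in the sources used here. For rAAV9-ST3GAL5.v1, it reports that all pups treated by vein on postnatal day 1 died within 3 days. Its Discussion states that this first-generation vector set off the UPR and severe liver toxicity. The 4 groups without CB-driven ST3GAL5 are called the control groups below. The question asked of the members was whether the wild-type and the E332K form of the same cassette left the same mark on them.

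Proteins of the secretory pathway fold in the ER, where BiP and GRP94 bind unfolded chains, disulfide isomerases form and reshuffle their bonds and the lectin chaperones hold their sugars. Chains that fail are drawn out through the Sel1l-Hrd1 complex and degraded in the cytosol, which is ERAD. Unfolded protein in the ER is sensed by the membrane proteins ATF6, IRE1 (the product of Ern1) and PERK (the product of Eif2ak3). ATF6 is cut to a transcription factor, IRE1 splices the mRNA of Xbp1 into the form that encodes an active factor, and PERK slows translation and raises ATF4 and CHOP. Hepatocytes secrete most plasma proteins and hold a large ER, so the response is a common readout of hepatocyte stress.

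The element through which ATF6 and XBP1 act on chaperone genes is the ER stress response element (ERSE), the letters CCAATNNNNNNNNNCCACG in either orientation. RefSeq promoters (GRCm38.p6, from 250 bases before to 50 after the gene start) were matched for 28 of the 35 members, with Ero1lb matched under its newer symbol Ero1b. An ERSE lay in 10 of these 28 members, against 37 of all 27025 genes of the promoter table (0.137%). These were Calr, Canx, Creld2, Derl3, Dnajc3, Ero1lb, Hsp90b1, Hspa5, Pdia6 and Syvn1. The related ERSE-II, ATTGGNCCACG, lay in Dnajb11 and Herpud1, against 12 of all genes (0.0444%), and TGACGTGG, a core bound by XBP1, lay in no member, against 193 of all genes (0.714%). Both strands were searched. A match is a description of the letters and not of a bound site, and a window without a match says nothing of the factor. The elements of 6 members whose levels carry the comparison are shown, with that of Canx, whose differences did not pass the tests below. Capitals mark the letters that define the element:
Hspa5: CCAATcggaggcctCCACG
Hsp90b1: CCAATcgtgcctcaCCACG
Hsp90b1, second element: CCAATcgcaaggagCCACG
Derl3: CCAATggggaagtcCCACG
Creld2: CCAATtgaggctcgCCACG
Syvn1: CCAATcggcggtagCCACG
Pdia6: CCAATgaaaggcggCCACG
Canx: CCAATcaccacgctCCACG
Each runs 5′ to 3′ from CCAAT to CCACG. The element of Hspa5 lies at chr2:34772025-34772043, on the strand of the gene (+), and ends 46 bases before the RefSeq start. The first of Hsp90b1 lies at chr10:86705533-86705551, on the strand opposite to the gene (-), and the second at chr10:86705638-86705656, on its own strand. Derl3 has its element at chr10:75893242-75893260, and Creld2 at chr15:88819520-88819538, both on the strand opposite to the gene (+). Those of Syvn1 (chr19:6046532-6046550, gene +), Pdia6 (chr12:17266491-17266509, gene +) and Canx (chr11:50325800-50325818, gene -) lie on the strand of the gene.

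The unit CPM below is a count put on a common library size with TMM factors over the 22 libraries, which held 17164502 to 24305788 expected counts each. The protocol names no step that keeps the strand, so reads of Eif2ak3, Sil1, Dnajb9, Manf, Hsp90b1, Pdia3, Pdia4, Pdia6, Syvn1, Derl2 and Sec61a1, whose exons overlap other genes in GENCODE vM21, cannot be split by strand. Summed levels of 12 hepatocyte markers ranged from 128796 to 191906 CPM in the control livers, from 126570 to 144888 in the E332K livers and from 102176 to 124603 in the rAAV9-ST3GAL5.v1 livers, with no marker at 0 in any group. Summed cholangiocyte markers (6 genes) were at 114 to 163 CPM and summed T and NK cell markers (8 genes) at 45.7 to 57.1 CPM in the rAAV9-ST3GAL5.v1 livers, above the highest of the other livers, 70.6 and 33.3 CPM. The 10 neutrophil markers summed to 2294 to 2529 CPM in the rAAV9-ST3GAL5.v1 livers, 1866 to 2322 in the E332K livers and 1316 to 2280 in the control livers. Markers of B lineage and plasma cells (8 genes), secretory cells rich in ER, summed to 124 to 213 CPM in the E332K livers and to 135 to 286 CPM in the control livers. In bulk RNA, fewer cells of a type and less RNA per cell cannot be told apart, and what these markers contribute to the values below was not tested. The labels name no litter, so the p-values cover no more than the variation among these pups. Gm47283, a gene whose part in the libraries is unknown, had no count in 9 livers and counts in 13. All rAAV9-ST3GAL5.v1 livers belonged to the first set and all E332K and PBS livers to the second, so where rAAV9-ST3GAL5.v1 is set against the E332K vector or PBS, treatment and this split cannot be told apart.

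The livers given the E332K vector stood apart from all others in these genes. Of the 35 members, 27 had all 3 E332K livers above each of the other 19 livers, the rAAV9-ST3GAL5.v1 livers among them, which held for 2.16% of the genes tested against AAV9.empty. Against the E332K livers, the rAAV9-ST3GAL5.v1 livers were lower in 26 members and higher in 1, Eif2ak3, by edgeR's quasi-likelihood test with a Benjamini-Hochberg adjusted p of at most 0.05, below called the edgeR test. Over all genes tested, 10% were lower and 9.55% were higher in this comparison. The median log2 fold change of the members was -1.16, and that of all genes was 0.01. Of the 26 lower members, 19 were lower by at least 2-fold, as were 3.07% of all genes. The livers of the vectors did not overlap in 28 members, where 42.9% of all genes did not overlap either. The chaperones and disulfide enzymes carried most of this, as all 8 genes of BiP and its cofactors, all 7 of GRP94, the disulfide enzymes and their cofactors and 10 of 11 ERAD genes were lower with rAAV9-ST3GAL5.v1, while no gene of the translocon (0 of 3) was.

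**Figure D1:**
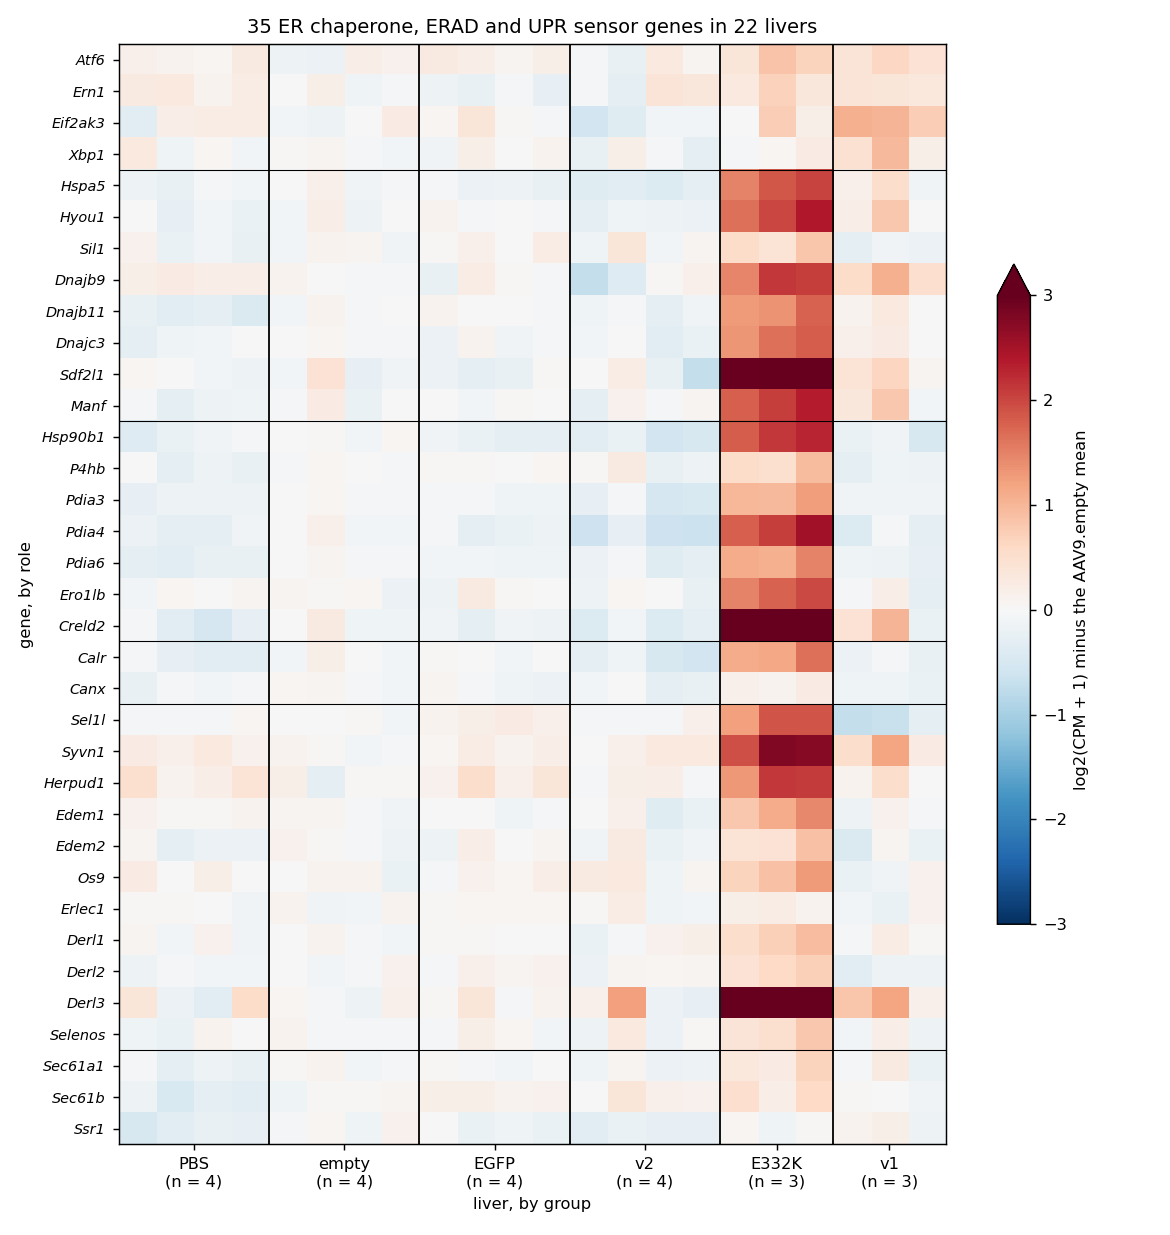
Level of each of the 35 genes (rows, grouped by role) in each of the 22 livers (columns, grouped by treatment; "empty" is AAV9.empty, "v1" and "v2" the rAAV9-ST3GAL5 vectors), as log2(CPM + 1) minus the mean of the AAV9.empty livers. Colours stop at a difference of 3, which Derl3 and Creld2 pass in all 3 E332K livers and Sdf2l1 in 2 of them. In the E332K columns the rows from Hspa5 to Derl3 differ in depth. Derl3, Creld2 and Sdf2l1 are dark red, while Canx, Erlec1, Edem2, Derl2 and Sil1 are as pale as the sensor Atf6. The rows of the sensors and the translocon are pale there.

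Hspa5 encodes BiP, the Hsp70 of the ER and the partner that keeps the sensors inactive. It stood at 2311, 2999 and 3377 CPM in the E332K livers and at 922, 1190 and 774 CPM in the rAAV9-ST3GAL5.v1 livers, while the 16 control livers ran from 625 to 922 CPM with a median of 739. The E332K livers thus lay above every other liver, and the rAAV9-ST3GAL5.v1 livers straddled the top of the control range. The level with rAAV9-ST3GAL5.v1 was 2.94-fold lower than with the E332K vector (log2 fold change -1.55 ± 0.21 SE, edgeR adjusted p = 0.00427). Sdf2l1, a BiP cofactor that holds unfolded chains, was found at 152, 202 and 283 CPM with the E332K vector, at 25.2, 29.8 and 19.7 CPM with rAAV9-ST3GAL5.v1 and at 11.1 to 25.4 CPM (median 17.5) in the control livers. Its difference between the ST3GAL5 vectors was 8.34-fold (log2 fold change -3.06 ± 0.26 SE, edgeR adjusted p = 0.00146). Both genes were highest in the third E332K liver and lowest in the first.

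The J-domain partners of BiP followed the same order. Dnajc3, the inhibitor p58IPK, had 319, 403 and 450 CPM with the E332K vector against 140, 150 and 127 CPM with rAAV9-ST3GAL5.v1, and 100 to 136 CPM (median 122) in the control livers. The difference was 2.74-fold (log2 fold change -1.46 ± 0.15 SE, edgeR adjusted p = 0.00288). For Dnajb11 (ERdj3, a secreted J protein) the E332K livers gave 216, 228 and 305 CPM, the rAAV9-ST3GAL5.v1 livers 95.1, 109 and 90.4 CPM and the control livers 65.6 to 96.5 CPM (median 85.2). It was 2.49-fold lower with rAAV9-ST3GAL5.v1 (log2 fold change -1.31 ± 0.16 SE, edgeR adjusted p = 0.00388). Neither gene had overlapping livers between the ST3GAL5 vectors. The remaining members of this role were also lower with rAAV9-ST3GAL5.v1: Manf, a secreted stress factor, by 3.17-fold, Hyou1, the nucleotide exchange factor GRP170, by 3.14-fold, Dnajb9 (ERdj4) by 2.24-fold and Sil1, the other exchange factor, by 1.72-fold, with edgeR adjusted p from 0.00557 to 0.011. Dnajb9 had 62.4, 88.9 and 60.1 CPM with rAAV9-ST3GAL5.v1, which lay between the E332K livers (117, 188 and 179 CPM) and the control livers (25.3 to 49.95 CPM).

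GRP94, the Hsp90 of the ER and the product of Hsp90b1, showed the same split at a high level. Hsp90b1 had 2199, 2716 and 3031 CPM in the E332K livers, 542, 580 and 445 CPM in the rAAV9-ST3GAL5.v1 livers and 418 to 643 CPM (median 542) in the control livers. The rAAV9-ST3GAL5.v1 livers lay inside the control range, and the difference from the E332K livers was 4.95-fold (log2 fold change -2.31 ± 0.18 SE, edgeR adjusted p = 0.00146). Its expected counts were not whole numbers in 21 of the 22 libraries, which means that some of its reads also matched other genes.

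Among the disulfide enzymes, Pdia4 (ERp72) had 799, 965 and 1314 CPM with the E332K vector, 172, 220 and 188 CPM with rAAV9-ST3GAL5.v1 and 147 to 257 CPM (median 202) in the control livers. It was 5.19-fold lower with rAAV9-ST3GAL5.v1 (log2 fold change -2.37 ± 0.20 SE, edgeR adjusted p = 0.00152), whose livers again sat within the control range. Pdia6 (P5), which also dampens IRE1, had 713, 689 and 926 CPM against 301, 297 and 279 CPM, with 257 to 351 CPM (median 302) in the control livers, a 2.59-fold difference (log2 fold change -1.37 ± 0.15 SE, edgeR adjusted p = 0.00298). Pdia3 (ERp57), the isomerase that works with the lectin chaperones, had 929, 908 and 1113 CPM against 427, 427 and 433 CPM, with 329 to 486 CPM (median 425) in the control livers. This 2.24-fold difference (log2 fold change -1.16 ± 0.13 SE, edgeR adjusted p = 0.00312) was smaller than that of Pdia4, and the rAAV9-ST3GAL5.v1 livers again lay within the control range. P4hb (PDI itself) differed less, with 2527, 2394 and 3305 CPM in the E332K livers and 1434, 1576 and 1540 CPM in the rAAV9-ST3GAL5.v1 livers (1.77-fold, edgeR adjusted p = 0.0122).

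Ero1lb, the oxidase that recharges PDI, had 75.5, 91.9 and 107 CPM with the E332K vector and 25.0, 30.2 and 21.7 CPM with rAAV9-ST3GAL5.v1, and the control livers had 22.2 to 31.7 CPM (median 26.8). It was 3.49-fold lower with rAAV9-ST3GAL5.v1 (log2 fold change -1.80 ± 0.17 SE, edgeR adjusted p = 0.00217). Creld2, an ER protein known as a target of ATF6, had 344, 523 and 701 CPM with the E332K vector, 55.3, 83.7 and 35.2 CPM with rAAV9-ST3GAL5.v1 and 28.3 to 49.1 CPM (median 36.9) in the control livers. The 8.78-fold difference (log2 fold change -3.14 ± 0.36 SE, edgeR adjusted p = 0.0035) had a larger standard error than most, as the 3 rAAV9-ST3GAL5.v1 livers themselves spread from the control range to well above it.

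**Figure D2:**
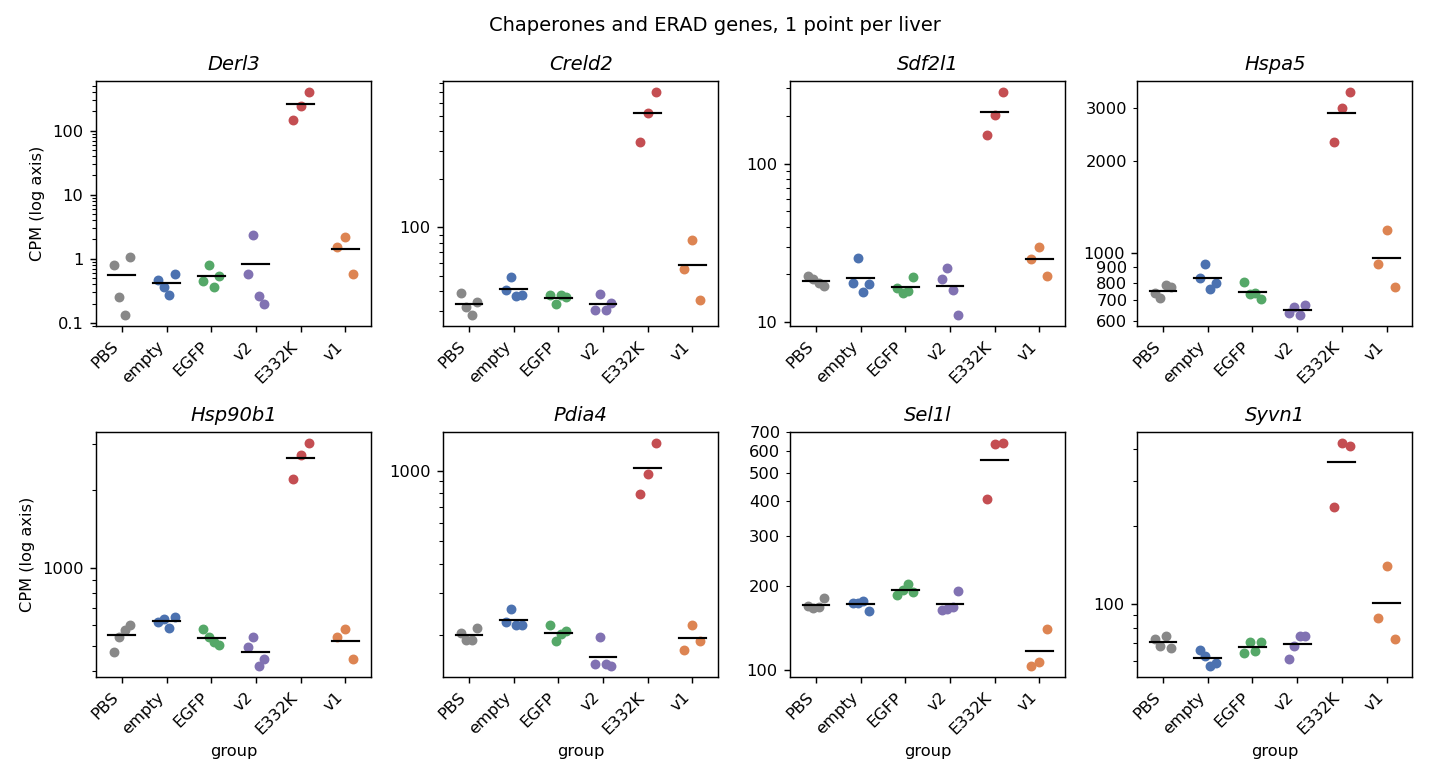
CPM (log axis, scaled for each gene) of 8 chaperone and ERAD genes, with 1 point per liver and a line at the mean of each group. The 3 E332K livers lie above all other livers in each panel, Derl3 runs from 0.131 to 398 CPM, and Sel1l has its lowest livers with rAAV9-ST3GAL5.v1.

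Of the lectin chaperones, which bind chains that carry a trimmed glycan, the soluble one moved and the membrane-bound one did not pass the test. Calr (calreticulin) had 2093, 2145 and 3027 CPM with the E332K vector, 849, 931 and 820 CPM with rAAV9-ST3GAL5.v1 and 649 to 1080 CPM (median 906) in the control livers. It was 2.73-fold lower with rAAV9-ST3GAL5.v1 (log2 fold change -1.45 ± 0.18 SE, edgeR adjusted p = 0.00379). Canx (calnexin) had 393, 378 and 417 CPM in the E332K livers and 323, 324 and 305 CPM in the rAAV9-ST3GAL5.v1 livers, which did not overlap, but the difference of -0.29 ± 0.11 SE on the log2 scale did not pass (edgeR adjusted p = 0.104). The translocon, through which chains enter the ER, showed no call between the ST3GAL5 vectors. Sec61b had 128, 104 and 137 CPM against 92.5, 90.6 and 83.8 CPM (log2 fold change -0.43 ± 0.14 SE, edgeR adjusted p = 0.0536), and did not overlap, while the livers of Sec61a1 and Ssr1 did.

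Derl3 showed the widest range of the members. It encodes a derlin, a membrane protein that helps to draw chains out of the ER, and lies at chr10:75893413-75895941 (GRCm38, + strand). Its rounded counts were 2916, 4903 and 6477 reads in the E332K livers, 32, 45 and 14 reads in the rAAV9-ST3GAL5.v1 livers and 3 to 38 reads in the 16 control livers. In CPM these were 146, 244 and 398 with the E332K vector and 1.53, 2.21 and 0.568 with rAAV9-ST3GAL5.v1, against 0.131 to 2.32 (median 0.458) in the control livers. The gene was thus near the floor of detection in 19 livers and well counted in 3. The fitted difference was 181-fold (log2 fold change -7.50 ± 0.54 SE, edgeR adjusted p = 0.00127), and such a fold depends on a few reads in the lower group. The other derlins were counted in every liver and differed far less, Derl1 by 1.55-fold (edgeR adjusted p = 0.0199) and Derl2 by 1.73-fold (edgeR adjusted p = 0.00561). In TPM, which corrects for transcript length, the E332K livers had means of 309 ± 154 for Derl3, 89.8 ± 13.7 for Derl1 and 45.5 ± 7.2 for Derl2 (SD, n = 3). Derl3 made up 67.1% ± 9.5 (SD, n = 3) of the summed derlin TPM there, from 56.5% to 74.7%, against 2.53% ± 1.45 (SD, n = 3) with rAAV9-ST3GAL5.v1 and 0.684% ± 0.341 (SD, n = 4) with AAV9.empty. The order of the derlins by TPM, Derl1 over Derl2 over Derl3, held in the means of the other 5 groups and had Derl3 on top in the E332K group.

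Sel1l, the adaptor of the ubiquitin ligase Hrd1, moved in opposite directions with the ST3GAL5 vectors, higher with the E332K vector and lower with rAAV9-ST3GAL5.v1 than in each of the 4 control groups. It had 404, 633 and 641 CPM in the E332K livers, 104, 107 and 140 CPM in the rAAV9-ST3GAL5.v1 livers and 162 to 202 CPM (median 174) in the control livers. No liver of one group overlapped with another of these 3 sets. The difference between the ST3GAL5 vectors was 4.68-fold (log2 fold change -2.23 ± 0.21 SE, edgeR adjusted p = 0.00217). Syvn1, which encodes Hrd1 itself, had 238, 422 and 411 CPM with the E332K vector and 88.3, 140 and 72.6 CPM with rAAV9-ST3GAL5.v1, against 57.3 to 75.1 CPM (median 67.6) in the control livers. It was 3.48-fold lower with rAAV9-ST3GAL5.v1 (edgeR adjusted p = 0.00763). In the rAAV9-ST3GAL5.v1 livers Sel1l thus lay under the control range, and Syvn1 lay above it in 2 of 3. Of the other ERAD genes, Herpud1, a scaffold of the complex, was 3.11-fold lower with rAAV9-ST3GAL5.v1, Edem1, a mannosidase-like protein that hands over glycoproteins, 2.20-fold, the lectin gene Os9 1.98-fold, Edem2 1.66-fold and Selenos 1.47-fold, with edgeR adjusted p from 0.00561 to 0.0363. Erlec1, the other ERAD lectin, stayed between 19.8 and 27.1 CPM in all 22 livers and was called in none of the 9 comparisons.

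Of the sensors and Xbp1, none was lower with rAAV9-ST3GAL5.v1 than with the E332K vector by the test, and Eif2ak3 was higher. Eif2ak3 (PERK) had 57.5, 55.7 and 45.9 CPM with rAAV9-ST3GAL5.v1, 27.3, 46.1 and 30.9 CPM with the E332K vector and 17.8 to 35.1 CPM (median 26.4) in the control livers. All rAAV9-ST3GAL5.v1 livers lay above the control range, and only the second E332K liver did. Between the ST3GAL5 vectors it was 1.56-fold higher with rAAV9-ST3GAL5.v1 (log2 fold change 0.64 ± 0.19 SE, edgeR adjusted p = 0.0487), a call that was lost in 8 of 16 alternative settings. Xbp1 had 212, 306 and 177 CPM with rAAV9-ST3GAL5.v1, 151, 164 and 184 CPM with the E332K vector and 126 to 191 CPM (median 153) in the control livers, so the E332K livers lay inside the control range and the difference of 0.51 ± 0.20 SE on the log2 scale did not pass (edgeR adjusted p = 0.104). Counts per gene do not separate the spliced from the unspliced mRNA of Xbp1, so IRE1 activity cannot be read from them.

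Atf6 and Ern1 lay close together in both ST3GAL5 groups. Atf6 had 51.2, 72.1 and 63.1 CPM with the E332K vector and 51.8, 60.6 and 53.1 CPM with rAAV9-ST3GAL5.v1, all above the control range of 33.8 to 48.8 CPM (median 42.7). The groups overlapped, and the log2 difference between them was -0.14 ± 0.14 SE (edgeR adjusted p = 0.512). Ern1 had 30.3, 40.2 and 31.3 CPM against 32.1, 31.8 and 30.6 CPM, with 20.1 to 32.1 CPM (median 24.3) in the control livers, and its log2 difference was -0.07 ± 0.13 SE (edgeR adjusted p = 0.712). In TPM, the 4 genes of this role summed to 188 ± 45 with rAAV9-ST3GAL5.v1 and 116 ± 15 with the E332K vector (SD, n = 3). Xbp1 outweighs the sensors in such a sum. Its median in the control livers was 94.4 TPM, against 6.5 for Atf6, 4.52 for Ern1 and 6.9 for Eif2ak3. The TPM of all genes was itself shifted between these vectors, as given below. The 35 members together summed to 4382 ± 394 and 10062 ± 1989 TPM (SD, n = 3) in the same order. The means of the control groups were 3415 to 4072 TPM.

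**Figure D3:**
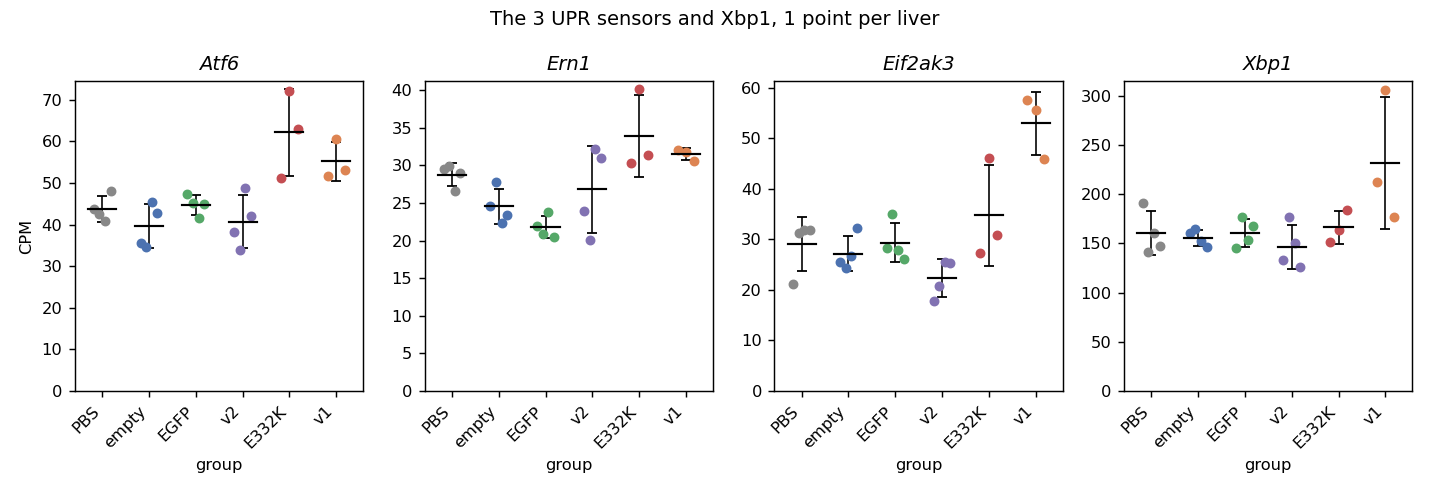
CPM of Atf6, Ern1, Eif2ak3 and Xbp1, with 1 point per liver, a line at the mean and bars of 1 SD, on axes from 0. The rAAV9-ST3GAL5.v1 livers are the highest for Eif2ak3 (45.9 to 57.5 CPM, with 1 E332K liver at 46.1), and the E332K livers lie inside the control range for Xbp1.

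Set against the control groups, the E332K livers were higher in most members and lower in none by the test. Against AAV9.empty, 30 of 35 members were higher and 0 lower by the edgeR test, where 7.93% of all genes were higher and 7.09% lower. The median log2 fold change was 1.13, and -0.0023 for all genes. Of the members called, 19 were higher by at least 2-fold, as were 1.84% of all genes. The livers did not overlap in 32 members and in 26.9% of all genes. The largest changes were those of Derl3 (602-fold), Creld2 (12.6-fold), Sdf2l1 (11.1-fold), Syvn1 (5.79-fold) and Pdia4 (4.42-fold), with Hspa5 at 3.47-fold (log2 fold change 1.80 ± 0.13 SE, edgeR adjusted p = 2.59e-06). The 5 members not called were Eif2ak3 (log2 fold change 0.35 ± 0.16 SE), Canx (0.16 ± 0.09), Erlec1 (0.16 ± 0.10), Xbp1 (0.08 ± 0.09) and Ssr1 (-0.02 ± 0.09).

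Against PBS, 29 members were higher and 0 lower, where 6.97% of all genes were higher and 4.31% lower. With AAV9.EGFP as the reference, which carries the same promoter, 29 were again higher and 0 lower, where 4.25% of all genes were higher and 3.65% lower. With rAAV9-ST3GAL5.v2 as the reference, 22 were higher and 0 lower, where 1.65% of all genes were higher and 0.210% lower. The number of members called and higher by at least 2-fold was 19 in all 4 comparisons, where 1.94% of all genes reached this against PBS, 1.01% with AAV9.EGFP as the reference and 0.650% with rAAV9-ST3GAL5.v2. These comparisons share the 3 E332K livers and so are not independent of each other. Derl3 was 468-fold higher than with PBS, 484-fold higher than with AAV9.EGFP and 328-fold higher than with rAAV9-ST3GAL5.v2. Hspa5 was 3.87-fold, 3.86-fold and 4.44-fold higher in the same order. Over the 4 comparisons, 22 members were called in all, 6 in 3 of them, 2 in 2 of them and 5 in none.

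The E332K livers also differed among themselves. Replicate 3 had the highest level of 27 members and replicate 1 the lowest of 26. Most members shared this spread, as with Creld2 (344 to 701 CPM) and Derl3 (146 to 398 CPM). Replicate 3 also had the lowest score of erythroid markers in the group, 9.08 log2 CPM against 9.82 and 9.95. With rAAV9-ST3GAL5.v1 and rAAV9-ST3GAL5.v2, replicate 2 was highest in 26 members and had the lowest score (9.39 and 8.96). In AAV9.empty and AAV9.EGFP, the liver highest in the largest number of members did not have the lowest score. In PBS, replicate 1 was highest in 15 members, and its score of 9.505 was almost level with the lowest, 9.504 in replicate 3. What erythroid RNA contributes to the spread within groups was not tested. Summed erythroid markers of the E332K livers ran from 21884 to 45085 CPM, against 20585 to 41804 CPM in the control livers, and with a score of these markers as a covariate 30 members were called against AAV9.empty. With the library of AAV9.empty that lacked Gm47283 left out, 28 were called. Restricted to libraries alike in Gm47283, 19 were called against AAV9.EGFP (1 AAV9.EGFP library left) and 20 against rAAV9-ST3GAL5.v2 (2 libraries left).

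**Figure D4:**
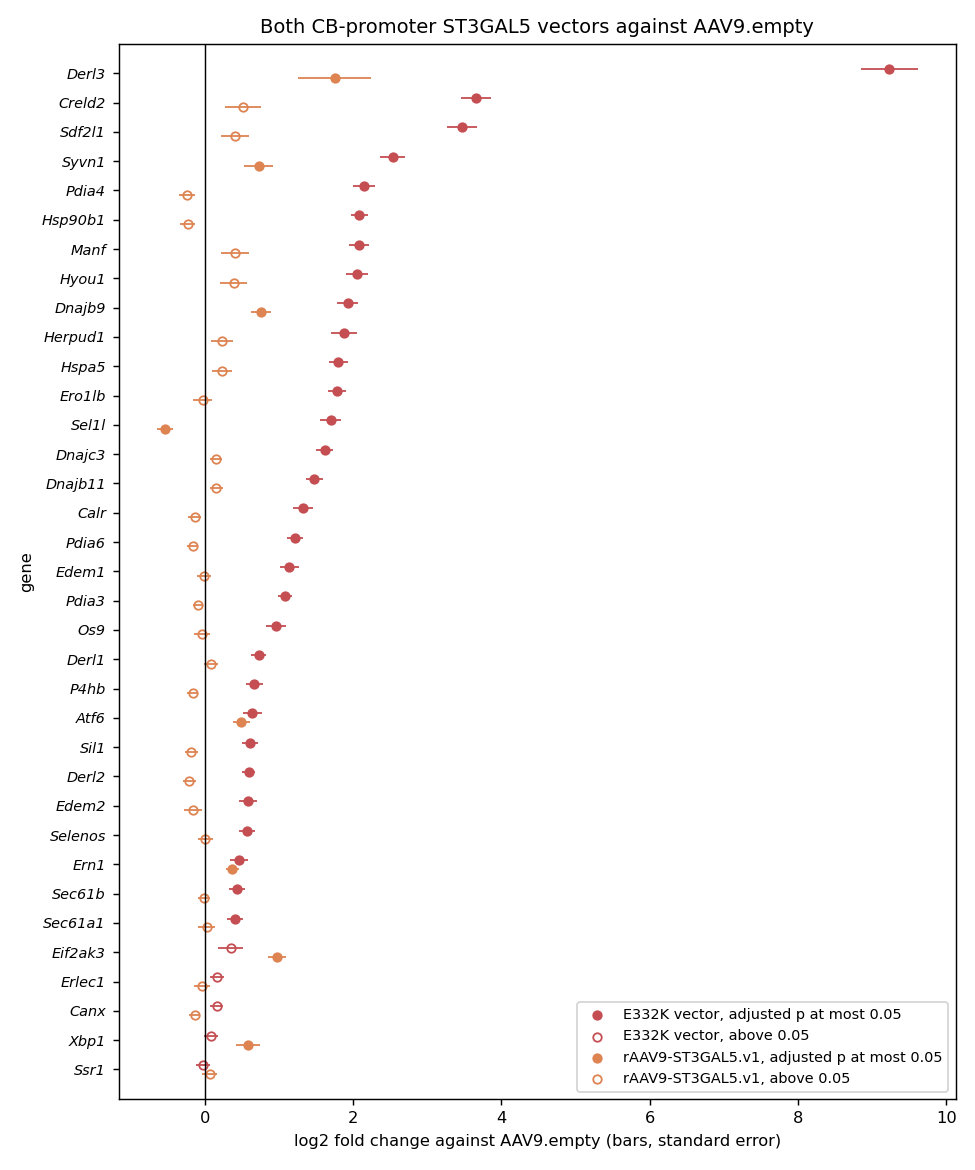
Log2 fold change of each member against AAV9.empty for the E332K vector (red) and rAAV9-ST3GAL5.v1 (orange), with bars of 1 SE from the edgeR fit. Filled points pass an adjusted p of 0.05. The red points run from -0.02 (Ssr1) to 9.23 (Derl3) and the orange ones from -0.54 (Sel1l) to 1.75 (Derl3). Both sets share the 4 AAV9.empty livers.

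Between rAAV9-ST3GAL5.v1 and the control groups, 8 to 12 members were called, and the share of members called lay under that of all genes in 2 of these 4 comparisons and over it in 2. Against AAV9.empty, 7 were higher and 1 lower, where 13.8% of all genes were higher and 14.3% lower, so in total a smaller share of the members than of all genes was called. The median log2 fold change was 0.03, and 0.02 for all genes. The 7 were Eif2ak3 (1.97-fold, log2 fold change 0.98 ± 0.12 SE, edgeR adjusted p = 0.000647), Dnajb9 (1.69-fold), Atf6 (1.41-fold), Ern1 (1.29-fold), Syvn1 (1.65-fold), Xbp1 (1.501-fold) and Derl3 (3.36-fold). Sel1l was 1.46-fold lower (log2 fold change -0.54 ± 0.11 SE, edgeR adjusted p = 0.00554). All 4 genes of the sensor role passed here. The calls of Derl3 and Xbp1 were lost in 11 and 6 of 18 alternative settings. The count of 8 members was 5 without AAV9.empty replicate 3 or 4 or rAAV9-ST3GAL5.v1 replicate 1, and 12 without rAAV9-ST3GAL5.v1 replicate 3. Against the 1 AAV9.empty library without Gm47283, as in all rAAV9-ST3GAL5.v1 livers, no member was called by edgeR in a comparison of 3 livers with 1, where 0 of 15871 genes were called and 2417 had an unadjusted p under 0.05.

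Hspa5 was not called against AAV9.empty (log2 fold change 0.23 ± 0.14 SE), nor were Hsp90b1 (-0.24 ± 0.10) and Pdia4 (-0.24 ± 0.10). With PBS as the reference, 11 members were higher and 1 lower, where 12.4% of all genes were higher and 12.7% lower, so a larger share of the members than of all genes was higher and a smaller share lower. The 11 were Eif2ak3 (1.84-fold), Creld2 (1.76-fold), Manf (1.49-fold), Dnajb9 (1.46-fold), Xbp1 (1.46-fold), Hyou1 (1.44-fold), Dnajb11 (1.38-fold), Sdf2l1 (1.38-fold), Ssr1 (1.31-fold), Atf6 (1.27-fold) and Sec61b (1.22-fold), and Sel1l was 1.45-fold lower. This count fell to 4 when any of PBS replicates 2 and 3 or rAAV9-ST3GAL5.v1 replicates 1 and 2 was left out, and to 5 and 7 without PBS replicates 4 and 1.

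With AAV9.EGFP as the reference, 6 members were higher and 3 lower, where 12.7% of all genes were higher and 15.1% lower, and in total the share of members called was slightly under that of all genes. Eif2ak3 (1.81-fold), Dnajb9 (1.66-fold), Sdf2l1 (1.49-fold), Ern1 (1.45-fold), Xbp1 (1.44-fold) and Atf6 (1.23-fold) were higher, and Sel1l (1.65-fold), Derl2 (1.23-fold) and Sil1 (1.23-fold) were lower. The count was 15 without rAAV9-ST3GAL5.v1 replicate 3, 4 without AAV9.EGFP replicate 2 and 5 without AAV9.EGFP replicate 3 or 4 or rAAV9-ST3GAL5.v1 replicate 1. In TPM, where the median of all genes was itself shifted by 0.13, the split of the calls was 9 higher and 1 lower.

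With rAAV9-ST3GAL5.v2 as the reference, 8 were higher and 1 lower, where 12.1% of all genes were higher and 11.3% lower, and in total the share of members called was slightly over that of all genes. These were Eif2ak3 (2.42-fold), Dnajb9 (1.95-fold), Creld2 (1.78-fold), Xbp1 (1.61-fold), Hspa5 (1.51-fold), Hyou1 (1.51-fold), Atf6 (1.38-fold) and Ssr1 (1.26-fold), and Sel1l was 1.45-fold lower. The count was 14 without rAAV9-ST3GAL5.v1 replicate 3, 2 or 3 without replicates 1 or 2 of that group and 3 or 4 without rAAV9-ST3GAL5.v2 replicates 1, 3 or 4. In TPM, with the median of all genes shifted by 0.17, 16 members were higher and 0 lower. Within the rAAV9-ST3GAL5.v1 group, the second liver had the highest level of 26 members and the third the lowest of 23.

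The 4 control groups were not alike in all members. A test for any difference among them called 7 of 35, where 7.82% of all genes were called: Sec61b, Pdia4, Dnajb11, Hspa5, Calr, Ssr1 and Hsp90b1. Hspa5 had means of 753 ± 36, 828 ± 68, 746 ± 42 and 652 ± 24 CPM (SD, n = 4) in PBS, AAV9.empty, AAV9.EGFP and rAAV9-ST3GAL5.v2 (edgeR adjusted p = 0.0264). Sec61b had 73.3 ± 6.4, 90.4 ± 5.9, 100.1 ± 2.3 and 101.5 ± 10.1 CPM (SD, n = 4) in the same order (edgeR adjusted p = 0.00346). The spread among control groups was thus far smaller than the rise of Hspa5 with the E332K vector, and for Sec61b it was of the size of the changes reported above. With all 6 groups in one fit 1 member was called, and with log2(TPM + 1) 11 were. The count of 7 ranged from 3 to 10 as single libraries were left out, and it was 3 without AAV9.empty replicate 1 or 2, PBS replicate 4 or rAAV9-ST3GAL5.v2 replicate 1 or 3, and 4 without PBS replicate 2 or 3, AAV9.EGFP replicate 3 or rAAV9-ST3GAL5.v2 replicate 4.

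Neighbouring ER genes, taken from lists outside the 35, had smaller median changes. Of 30 tested genes of ER folding and glycosylation, 12 were lower and 2 higher with rAAV9-ST3GAL5.v1 than with the E332K vector, with a median log2 fold change of -0.36. Fkbp11, a prolyl isomerase of secretory cells, was lower by 1.16 ± 0.16 SE on the log2 scale and Ppib, cyclophilin B, by 1.02 ± 0.15 SE (edgeR adjusted p = 0.00509 and 0.00585). Of 23 further ERAD genes, 2 were lower and 0 higher, Rnf5 and Man1b1, and of 20 genes of translocation and signal peptide cleavage, 2 were lower and 0 higher, Ssr4 and Sec11a. These shares are near the 10% of all genes lower in this comparison and say nothing particular of the lists between these vectors. With the E332K vector, Ube2g2, Rnf185, Edem3, Rnf5 and Ubxn4 of these ERAD genes were higher than with AAV9.empty by the edgeR test. Of the translocation genes, Ssr4, Srprb, Ssr3, Sec11c, Srpr, Sec11a, Srp68 and Srp72 were higher there, and Tram2 was lower. No other gene of the ERAD and translocation lists passed there, where 7.93% of all genes were higher and 7.09% lower. Of the folding and glycosylation genes, Fkbp11, Ppib, Txndc11, Uggt1, Prkcsh, Hspa13, Ddost, Erp29 and Rpn1 were also higher than with AAV9.empty. P4ha1, Sumf1 and Rcn1 of that list were lower. Between the ST3GAL5 vectors, 4 of 23 genes of transport between ER and Golgi were lower with rAAV9-ST3GAL5.v1 and 1 was higher. With the E332K vector, Kdelr3, Mcfd2, Arfgap3, Tmed2, Preb, Sec24d, Bet1, Surf4, Sec23b and Lman2 of these transport genes were higher than with AAV9.empty. No transport gene was lower there by the edgeR test. Kdelr3, a receptor that returns escaped chaperones to the ER, had 10.4, 13.7 and 19.4 CPM with the E332K vector and 14.0, 16.4 and 9.82 CPM with rAAV9-ST3GAL5.v1, where the AAV9.empty livers had 2.99 to 3.93 CPM. Both ST3GAL5 groups were thus above AAV9.empty (log2 fold change 2.003 ± 0.20 SE and 1.92 ± 0.20 SE), and the log2 difference between them was -0.07 ± 0.26 SE (edgeR adjusted p = 0.865).

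The list of the PERK-ATF4-CHOP branch held 20 genes, among them Eif2ak1, Eif2ak2 and Eif2ak4, kinases that act beside PERK and not under it. With the E332K vector 10 were higher and 2 lower than with AAV9.empty, where 7.93% of all genes were higher and 7.09% lower, and with rAAV9-ST3GAL5.v1 11 were higher and 1 lower, where 13.8% were higher and 14.3% lower. In each of these comparisons 8 genes did not pass. Against rAAV9-ST3GAL5.v2, 5 were higher and 0 lower with the E332K vector (Ddit3, Trib3, Nupr1, Atf3 and Chac1), where 1.65% of all genes were higher, and 7 were higher and 1 lower with rAAV9-ST3GAL5.v1, where 12.1% were higher. The control groups themselves differed in 5 genes of the list, Bbc3, Sesn2, Cebpb, Ddit4 and Eif2ak4, with edgeR adjusted p from 2.24e-06 to 0.0482. Ddit3, which encodes the pro-death factor CHOP, had 68.1, 125 and 179 CPM with the E332K vector, 32.7, 22.01 and 27.4 CPM with rAAV9-ST3GAL5.v1 and 6.91 to 11.5 CPM with AAV9.empty. It was lower with rAAV9-ST3GAL5.v1 than with the E332K vector by 2.15 ± 0.32 SE on the log2 scale (edgeR adjusted p = 0.0059). Trib3, a pseudokinase target of CHOP, had 36.2, 90.2 and 114 CPM against 10.3, 12.5 and 7.59 CPM (log2 fold change -2.95 ± 0.40 SE, edgeR adjusted p = 0.0043). Chac1, a glutathione-degrading target of ATF4, did not follow them, with 2.70, 4.83 and 8.23 CPM with the E332K vector and 5.51, 4.91 and 5.32 CPM with rAAV9-ST3GAL5.v1 (log2 fold change 0.04 ± 0.35 SE between them, edgeR adjusted p = 0.951). Cebpb, a partner of CHOP and a factor of the acute-phase response, was the reverse, at 40.3, 48.4 and 59.9 CPM against 116, 287 and 115 CPM (log2 fold change 1.84 ± 0.36 SE, edgeR adjusted p = 0.012). Between the ST3GAL5 vectors, 5 genes of this list were lower and 2 higher with rAAV9-ST3GAL5.v1. Over all genes, 10% were lower and 9.55% higher in this comparison. Of 14 other UPR factors and proteases, 4 were lower and 0 higher, among them Wfs1 (wolframin, an ER membrane protein) with a log2 fold change of -1.16 ± 0.27 SE.

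**Figure D5:**
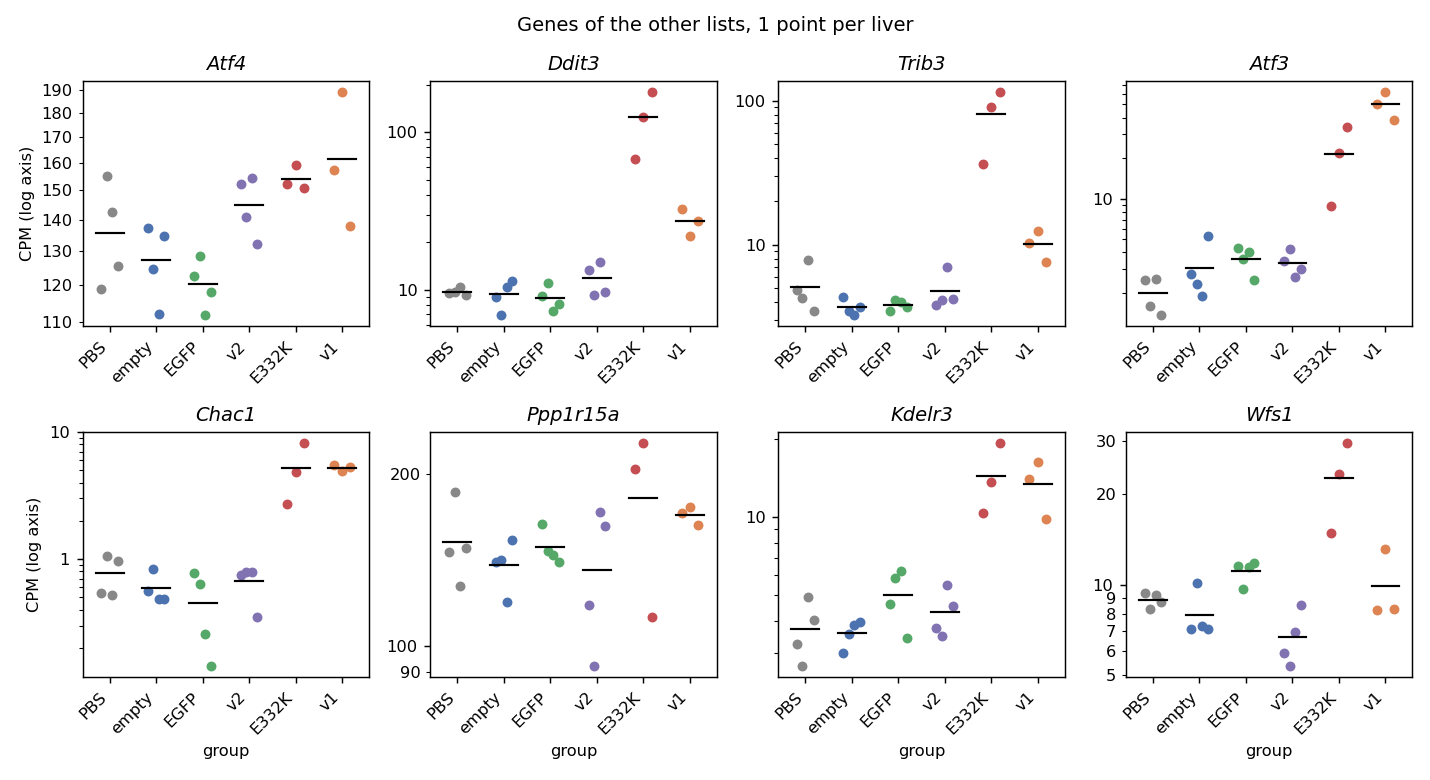
CPM (log axis, scaled for each gene) of 8 genes outside the 35 members, with 1 point per liver and a line at the mean of each group. All E332K livers lie above all others for Ddit3 and Trib3, while the livers of the ST3GAL5 vectors overlap for Chac1 and Kdelr3 and lie above the rest there.

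The ERSE described above was set beside the change with the E332K vector. Of the 12 members with an ERSE or ERSE-II, 11 were higher than with AAV9.empty and all 11 by at least 2-fold, with a median log2 fold change of 1.79 and a range from 0.16 (Canx) to 9.23 (Derl3). Of the 16 members whose promoter held neither, 13 were higher and 6 by at least 2-fold, with a median of 0.63 and a range from -0.02 (Ssr1) to 3.47 (Sdf2l1). Of the 7 members without a promoter in the table, 6 were higher and 2 by at least 2-fold. These are counts for the description of the members, and Sdf2l1 and Pdia4 rose as far as most members with an element although their windows held none.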

How the data were processed

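Liver RNA was sequenced from 22 pups. The authors trimmed reads with Trimmomatic, aligned them with STAR to mm10 and estimated expected counts and TPM per gene with RSEM. The GENCODE release is not given in the sources used here. The deposited expected counts were rounded to whole numbers, and 16.0% of those above 0 were not whole. The deposited TPM values, scaled by the authors to transcript length and library, served for levels between genes and as an alternative in limma 3.58.1. Each comparison of 2 groups was fitted on its own libraries with edgeR 4.0.16 (R 4.3.3; TMM, filterByExpr, glmQLFit and glmQLFTest), with p adjusted by Benjamini-Hochberg over all genes tested, and the 4 control groups were tested for any difference. A member was called at an adjusted p of at most 0.05. The SE of a log2 fold change is its size over the root of F. The method was tested on simulated data. DESeq2 1.42.0, other filters and scalings, a replicate block, an erythroid covariate and leaving out each library were alternatives. A further one, libraries alike in Gm47283, was added after the data were seen. Members and lists were chosen with earlier results of these data known. All 35 members are named or counted by role. The human transgene was not analysed here. Promoters and gene positions came from RefSeq (GRCm38.p6) and GENCODE vM21.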

Additional observations from a re-analysis of the deposited data

Results flagged for a closer look

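Each member was scanned in each group of 4 livers, which made 140 cases. In 6 of them a liver was set apart from the other 3 by more than Dixon's critical value for 4. Chance alone sets apart about 1 in 20 independent cases, but these cases share the same 16 livers and are not independent. PBS replicate 1 was low in Eif2ak3, at 21.1 CPM against 31.3 to 31.9 CPM in the other PBS livers, and in Pdia3, at 389 CPM against 416 to 418 CPM. In the rAAV9-ST3GAL5.v2 group, replicate 2 was high in Pdia4 (195 CPM against 147 to 150 CPM), replicate 4 was high in Sel1l (191 CPM against 164 to 167 CPM) and replicate 1 was low in Derl2 (43.1 CPM against 50.1 to 51.3 CPM). Replicate 2 of this group was the highest of the 4 in 26 members and had the lowest erythroid score of them (8.96 log2 CPM). AAV9.empty replicate 1 was high in Selenos, at 55.6 CPM against 50.3 to 50.9 CPM. Groups of 3 livers were not scanned.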

How the results depend on the processing

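No called member changed direction under any alternative. Called members numbered 27 between the wild-type and E332K cassettes, 8, 12, 9 and 9 for rAAV9-ST3GAL5.v1 against AAV9.empty, PBS, AAV9.EGFP and rAAV9-ST3GAL5.v2, 30, 29, 29 and 22 for the E332K vector in the same order, and 7 among the control groups. With 1 library left out at a time they ranged from 21 to 27, 5 to 12, 4 to 14, 4 to 15, 2 to 14, 27 to 30, 28 to 29, 26 to 29, 19 to 27 and 3 to 10. Requiring also a change of at least 2-fold left 1, 0, 0 and 1 for rAAV9-ST3GAL5.v1 and 19 in each comparison of the E332K vector with AAV9.empty, PBS and AAV9.EGFP. With log2(TPM + 1) and no filter the counts were 5 against AAV9.empty (5 higher, 0 lower) and 6 against PBS for rAAV9-ST3GAL5.v1, and 18 for the E332K vector against AAV9.EGFP. With a mean TPM of at least 1, the comparison of rAAV9-ST3GAL5.v1 with rAAV9-ST3GAL5.v2 gave 16 at either pseudocount (1 or 0.1) and that of the control groups 11. The erythroid covariate gave 4 against PBS and 16 against rAAV9-ST3GAL5.v2 for rAAV9-ST3GAL5.v1. All 6 groups in one fit gave 15 between rAAV9-ST3GAL5.v1 and rAAV9-ST3GAL5.v2 and 1 among the control groups, which had 4 without a filter on low counts. Libraries alike in Gm47283 gave 0, 5 and 2 for rAAV9-ST3GAL5.v1 against AAV9.empty, AAV9.EGFP and rAAV9-ST3GAL5.v2, and 19 for the E332K vector against AAV9.EGFP, with fewer livers in each. The cause of these shifts was otherwise not tested. On the log2(TPM + 1) scale the median over all genes between the wild-type and E332K cassettes was itself 0.18, and 23 members were then lower and 2 higher. Livers with the same replicate number did not deviate together in the median (correlation -0.0036 over 51 pairs, 13 over 0.1). Pairs with different numbers had a median of 0.0090 over 150 pairs, 28 over 0.1. The highest correlation was 0.49 with the same number and 0.39 with different numbers. With a replicate block the counts were 27, 7, 4, 6, 2, 26, 29, 27, 18 and 4 in the order above.

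Groups of 3 or 4 livers limit every count, and Derl3 rests on 3 to 45 reads per library outside the E332K group.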
